A study of Gallus gallus with 16 samples.

Results

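The 402 array features described here each carry exactly 1 gene symbol in the platform annotation, and that symbol names a microRNA gene (MIR followed by a digit, or MIRLET7). They were taken from 20804 features by the symbol alone, with no value used, and stand for 392 symbols. Liver RNA came from 16 male broilers (Gallus gallus, a meat-type chicken) sampled at day 21, in 4 diet groups of 4 birds, lettered A, E, F and H. The series title names saponins and a blend of essential oils (from oregano, thyme, rosemary and star anise) as the feed additives under study. Which letter stands for which additive or for plain feed is not given in the sources used here, so differences between diets are differences between letters. All birds share sex, age and tissue, and the labels name no genotype, strain or drug.

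A microRNA gene is transcribed into a long primary transcript that is cut in the nucleus to a short hairpin and in the cytoplasm to a mature microRNA, which then guides the silencing of messenger RNAs. Many microRNA genes lie inside introns of other genes and can be transcribed together with them, while others form clusters on 1 primary transcript. In vertebrate liver the best known microRNA is miR-122, and miR-192, miR-194, miR-148a, miR-101 and the let-7 family are also commonly found there. The RNA was column-purified and labelled by a whole-transcript method, and columns of this kind hold back mainly long RNA. Which form of a microRNA transcript a feature bound was not tested, and the values are described as signals of microRNA gene features, not as amounts of mature microRNA.

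The tissue label was checked against marker genes. Of 8 hepatocyte markers 7 had a feature (among them genes of albumin and plasma proteins), and their mean log2 signals ran from 13.02 to 13.87, against 4.14 to 6.29 for 3 neural markers. The 2 muscle markers lay at 4.72 to 6.46 and the 2 pancreas markers at 5.70 to 6.23. Other cell types also had signal: 2 macrophage markers lay at 10.56 to 12.64 and 2 stellate cell markers at 7.18 to 9.83. The 4 erythrocyte markers lay at 5.31 to 9.61, and the 4 T and NK cell markers at 6.33 to 8.37. Array medians lay between 6.11 and 6.21. Diet H replicates 3 and 4 stood apart, with a mean correlation with the other arrays of 0.948 and 0.946, against at least 0.966 in the other 14. Many of the results below are therefore also given without them, but not all. In such bulk tissue fewer cells of a type and less RNA per cell cannot be told apart.

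MicroRNA gene features had lower signals than the other features of the array. The median of their mean log2 signals was 4.44, against 6.15 for all features and 6.74 for the 11898 other features with 1 symbol. The 20th percentile of all values on all arrays, 4.31, served as a mark for dim signals, since no background level comes with the values. Markers of other tissues passed it too: 2 of 3 neural, 2 of 2 muscle and 2 of 2 pancreas markers. Of the 402 features 206 (51.2%) had a mean above this mark, against 80.2% of all features and 88.2% of the other features with 1 symbol. With 1 feature per symbol the count was 199. On every one of the 16 arrays 165 (41%) lay above it, 91 did so on 1 to 15 arrays and 146 (36.3%) on none. Only 57 (14.2%) had a mean above the 50th percentile of all values, where all features have 49.9%. The mark cut through a continuum: MIR21, MIR302D and MIR3532 lay just above it at 4.37, 4.36 and 4.35, and MIR184, MIR1B and MIR1792 just below at 4.29, 4.29 and 4.28.

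**Figure D1:**
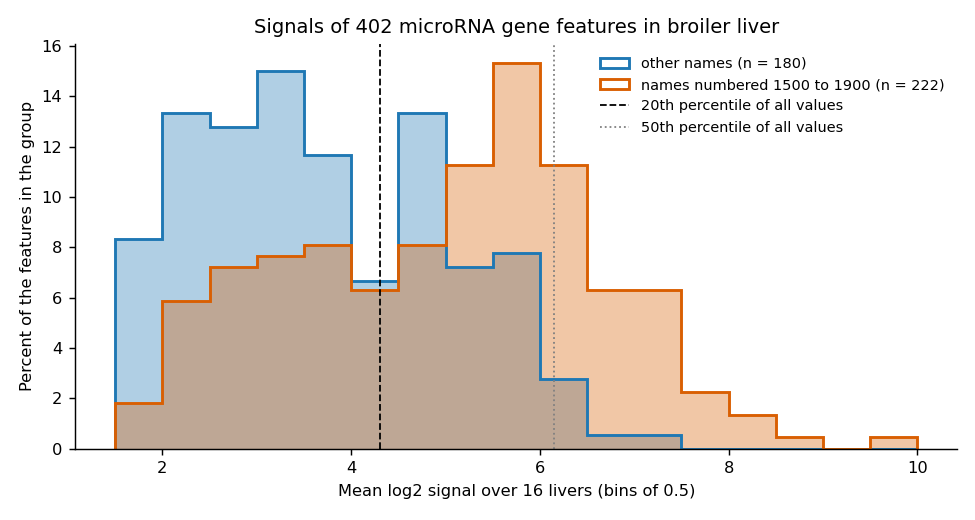
Distribution of mean log2 signals (x axis, bins of 0.5) of microRNA gene features, as the percent of each group (y axis), for the 222 features with names numbered 1500 to 1900 (orange) and the 180 others (blue). Dashed and dotted lines are the 20th and 50th percentiles of all values, 4.31 and 6.15; the orange group reaches 9.73 and the blue one 7.16.

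The bright end was held by features with a name number between 1500 and 1900, a stretch of numbers given largely to microRNAs found by sequencing small RNA of chicken embryos. All 12 of the brightest features carry such a number, as do 52 of the 57 above the 50th percentile. Within a protein-coding gene lie 10 of the 12 and 47 of the 57. So do 296 of all 402 features and 172 of the 222 numbered 1500 to 1900. The gaps between these shares were not tested, so such a position is not shown to mark the bright end. This split by number was chosen after the values were seen. Of the 222 features so numbered 144 (64.9%) had a mean above the 20th percentile, with a median of 5.17. Of the 180 others, which include the widely conserved families, 62 (34.4%) did, with a median of 3.54. The features differ in their probes, so an order of signals across features is not an order of RNA amounts.

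MIR1648 (feature 15466176) was the brightest. It read 9.21, 9.75, 9.95 and 9.47 in diet A and 9.79, 9.92, 9.67 and 9.78 in diet E. In diet F it read 9.78, 9.42, 9.50 and 9.84, and in diet H 9.33, 9.78, 10.19 and 10.34. The diets overlapped, and the top readings were those of diet H replicates 3 and 4. MIR1604 (8.96 ± 0.27, SD over 16 birds), MIR1557 (8.46 ± 0.15), MIR1698-1 (8.26 ± 0.42) and MIR1724 (8.05 ± 0.38) came next by mean signal. MIR1754 (7.96), MIR1635 (7.72), MIR1797 (7.58), MIR1785 (7.57), MIR1652 (7.57), MIR1644 (7.48) and MIR1653 (7.48) completed the 12. All of them lay above the 20th percentile on all 16 arrays. For MIR1648 the diet means were 9.59 ± 0.33 (SD, n = 4) in A, 9.79 ± 0.11 in E, 9.63 ± 0.21 in F and 9.91 ± 0.45 in H.

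**Figure D2:**
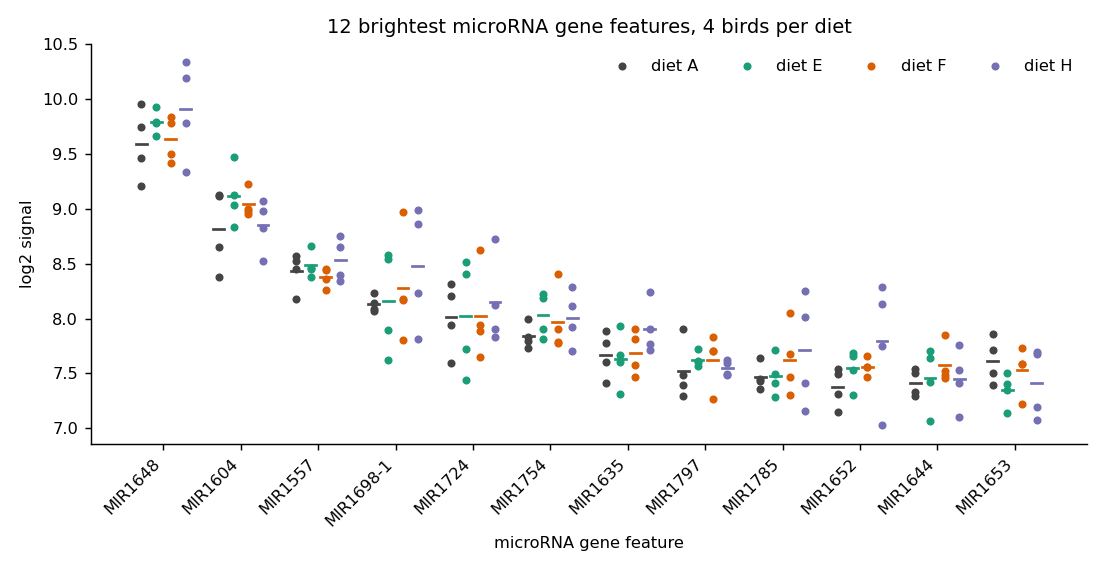
Log2 signal (y axis) of the 12 brightest microRNA gene features (x axis), with 1 point per bird and a bar at the mean of the 4 birds of a diet, coloured by diet. The 4 diets overlap in each feature, and MIR1648 lies between 9.21 and 10.34.

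The brightest feature with another name was MIRLET7D, at rank 21. It belongs to let-7, a family that represses growth and cell cycle genes in animals. MIRLET7D read 7.57, 7.05, 7.27 and 7.84 in diet A and 6.68, 7.66, 7.38 and 6.96 in diet E. It read 7.39, 7.19, 6.75 and 6.36 in diet F and 7.69, 7.85, 6.91 and 6.06 in diet H. The diet H birds thus held both the highest and the lowest value of the 16. Of 11 let-7 features 5 had a mean above the 20th percentile, among them MIRLET7B at 5.27, MIRLET7A3 at 5.15 and MIRLET7G at 4.83.

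Of features for microRNAs known from liver, 2 of 8 had a mean above the 20th percentile and 1 lay above it on all arrays. MIR455 averaged 5.01 ± 0.28 (SD over 16 birds), MIR21, often raised in injured or growing tissue, 4.37 ± 0.32, MIR22 4.04 ± 0.39 and MIR101-1 3.94 ± 0.29. MIR194-1 averaged 3.73, MIR148A 3.04, MIR122B 2.86 and MIR101-2 2.55, and the last 3 lay below the mark on all arrays. The copies MIR122-1 and MIR122-2 are not among the 402, because the 2 features that name them carry both symbols. The MIR30 family had 4 of 6 features above the mark, led by MIR30A at 5.68, MIR30C2 at 4.79 and MIR30E at 4.78.

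Families known from other tissues are given in the same way. Of 10 muscle and heart features 1 was above it (MIR133B at 5.65), with MIR1B at 4.29 and MIR206 at 3.44. Of 10 neural features 3 were above, MIR138-1 at 5.93, MIR124A at 4.74 and MIR124-3 at 4.63. Blood and immune cell microRNAs had 2 of 13 above, MIR451B at 4.67 and MIR146B at 4.58, with MIR146A at 4.20 and MIR181A1 at 4.20. Among epithelial, gut and pancreas microRNAs it was 1 of 10 (MIR200B at 4.61), and MIR7B, MIR7-1 and MIR375 lay at 3.99, 3.90 and 3.80. Of 20 features for microRNAs of the early embryo and of proliferating cells 7 were above, led by MIR16-2 at 6.09, MIR92A1 at 5.33, MIR15C at 5.26 and MIR302C at 4.95. Of 5 from the Hox clusters 1 was above (MIR196B at 4.58, with MIR196A2 at 3.43 and MIR10A at 2.08), and the endothelial MIR126 lay at 3.27. None of these lists holds a name numbered 1500 to 1900, so each share can be read against the 34.4% of the 180 other features. Those 180 are not conserved families alone. They also hold names numbered just outside that stretch, such as MIR1453 at 6.02 and MIR1459 at 3.36. In each list 0 members passed adjustment in the diet comparisons below. The lists were chosen with earlier results of these data known.

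The signals of the microRNA gene features shifted from bird to bird together with those of all features and with the spread of the array. Each bird's median deviation of the 402 features from their means over the 16 birds was lowest in diet H replicate 2 (-0.15) and highest in diet H replicate 4 (0.15). The 5 arrays with the narrowest spread of all values had the 5 highest deviations: diet E replicate 1 (SD 2.10, deviation 0.11), diet H replicate 3 (2.11, 0.12), diet H replicate 4 (2.11, 0.15), diet F replicate 4 (2.12, 0.12) and diet F replicate 3 (2.13, 0.05). Over all features the same 5 arrays were the highest, with median deviations of 0.10 in diet H replicate 4, 0.08 in diet H replicate 3, 0.06 in diet F replicate 4, 0.03 in diet E replicate 1 and 0.03 in diet F replicate 3. Diet H replicate 2 had the widest spread, with an SD of 2.21, and the lowest median deviation over all features, -0.08. The part of this spread in the differences below was not tested. By diet the deviation averaged -0.04 ± 0.08 (SD, n = 4) in A, -0.01 ± 0.09 in E, 0.01 ± 0.09 in F and 0.02 ± 0.14 in H, and the number of features above the 20th percentile averaged 205.5 ± 3.70, 208.75 ± 6.24, 210.25 ± 4.03 and 207.75 ± 5.56.

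**Figure D3:**
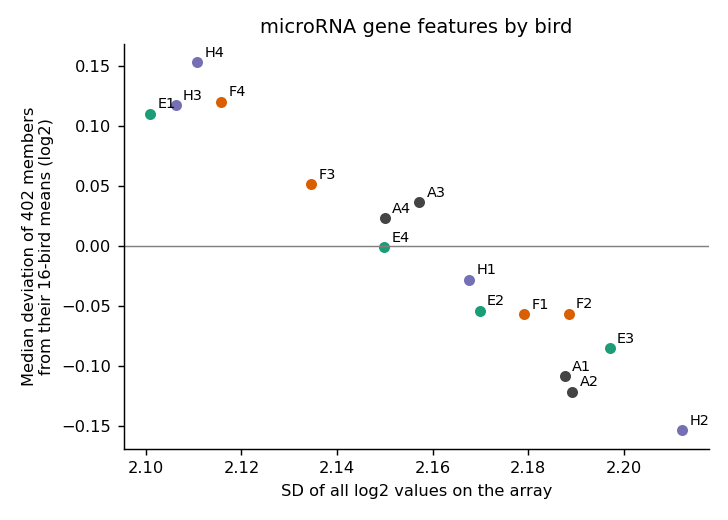
Median log2 deviation of the 402 microRNA gene features from their means over 16 birds (y axis) against the SD of all log2 values on the array (x axis), 1 labelled point per bird, coloured by diet. The deviations run from 0.15 at diet H replicate 4 to -0.15 at diet H replicate 2, which has the widest array.

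No microRNA gene feature differed between diets after adjustment. limma's moderated tests, with Benjamini-Hochberg adjustment over all 20804 features, called 0 of the 402 in each of the 6 differences and in the F test over all diets, where 0% of all features were called. At an unadjusted p under 0.05 there were 10 of 402 (2.49%) in E minus A, against 2.03% of all features. The counts were 5 (1.24%, all features 1.68%) in F minus A and 18 (4.48%, all features 8.21%) in H minus A. They were 6 (1.49%, all features 1.35%) in E minus F, 12 (2.99%, all features 2.72%) in H minus E, 15 (3.73%, all features 2.6%) in H minus F and 11 (2.74%, all features 2.13%) in the F test. The gaps between these shares and those of all features were not tested, and they were small in E minus A, E minus F and H minus E. Where 2 features have identical values, both are counted here. Those higher in the first diet of the difference numbered 8 in E minus A (all features 1.12%), 5 in F minus A (0.99%) and 13 in H minus A (4.44%). They numbered 0 in E minus F (0.61%), 8 in H minus E (1.67%) and 9 in H minus F (1.49%). The median difference of the 402 was 0.03 in E minus A, 0.07 in F minus A and 0.08 in H minus A, against 0.02, 0.03 and 0.05 over all features. It was -0.03 in E minus F, 0.03 in H minus E and 0.02 in H minus F, against -0.004, 0.01 and 0.006. The pooled SD of the birds' medians within a diet was 0.10, larger than each of these. This SD is a spread of single birds. The spread of a difference between means of 4 birds is smaller and was not computed. Without diet H replicates 3 and 4 the H minus A median was -0.05, with all features at -0.01. The unadjusted counts were then 8 in H minus A, 22 in H minus E and 22 in H minus F. They were 16 in E minus A, 13 in F minus A, 15 in E minus F and 15 in the F test. The differences without diet H do not change when these birds are left out. Their counts moved through the estimate of the spread, which the diets share. The matching shares of all features were not computed without these birds, so none of these counts can be read as a result about the microRNA gene features. The numbers in the sample titles, whose meaning is not stated, form a block up to 25 and a block above it, with 2 birds of each diet in each. In diets A, F and H the median deviation was below 0 in all 6 birds of the lower block (-0.15 to -0.03) and above 0 in all 6 of the upper (0.02 to 0.15). Over all features the same birds ran from -0.08 to 0.003 in the lower block and from -0.003 to 0.10 in the upper. The block pattern was thus largely shared by the whole array. In diet E the median deviation of the 402 was 0.11 and -0.05 in the lower block and -0.09 and -0.001 in the upper. The pooled SD within diet and block, again a spread of single birds, was 0.06. It was smaller than the F minus A and H minus A medians and larger than the other 4. As a spread of single birds, chosen after the data were seen, it does not set those medians apart. Within the lower and upper block the median was 0.05 and 0.06 in F minus A, 0.02 and 0.12 in H minus A, and 0.15 and -0.10 in E minus A. Over all features it was 0.004 and 0.07 in F minus A, -0.001 and 0.11 in H minus A, and 0.04 and -0.01 in E minus A.

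MIR1661 (feature 15457116) had the smallest p of the set in the F test. It read 2.47, 2.45, 2.73 and 2.44 in diet A, 3.06, 3.17, 3.26 and 3.02 in diet E, 3.17, 3.26, 3.87 and 3.16 in diet F, and 2.85, 2.71, 3.26 and 2.93 in diet H. All birds on diets E and F read above all on diet A, and diet H overlapped with A. The difference was 0.61 ± 0.17 (SE) in E minus A (adjusted p = 0.9997) and 0.84 ± 0.17 in F minus A (adjusted p = 0.993). The signal was below the 20th percentile on all 16 arrays. Groups that do not overlap were found for 9 of the 402 (2.24%) in E minus A, against 2.7% of all features, and for 8 (1.99%) in F minus A, against 1.84%.

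Members of 2 conserved families also read lowest in diet A. MIR30B, 1 copy of the MIR30 family, read 2.06, 2.40, 3.08 and 3.28 in diet A, 3.31, 3.26, 3.15 and 3.40 in diet E, 3.44, 3.88, 3.54 and 3.22 in diet F, and 3.51, 3.58, 3.26 and 2.998 in diet H. The low readings were the first 2 birds of diet A, and the ranges overlapped. The F minus A difference was 0.82 ± 0.24 (SE), with 1.43 in the lower title block and 0.20 in the upper (adjusted p = 0.993). MIR126, which lies in the endothelial gene EGFL7, read 2.35, 2.85, 2.72 and 3.28 in diet A and 3.99, 3.31, 3.22 and 3.62 in diet E. It read 3.20, 2.78, 3.57 and 3.45 in diet F and 3.28, 3.13, 4.23 and 3.38 in diet H. Diets A and E overlapped only in A replicate 4, with a difference of 0.74 ± 0.26 (SE, adjusted p = 0.9997). Both features were below the 20th percentile on all arrays. Of 4 endothelial markers 3 had a feature, all above the 20th percentile, and their average per bird ran from 8.16 to 8.66. Their part in the MIR126 values was not tested.

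MIR1551 (feature 15427171), which lies inside the endocytosis gene EPN2, was the brightest of these leading features, above the 20th percentile on all arrays. It read 6.53, 6.50, 6.88 and 6.95 in diet A, 6.11, 6.56, 6.54 and 6.51 in diet E, 6.67, 6.53, 6.22 and 6.04 in diet F, and 6.07, 6.30, 5.67 and 5.70 in diet H. All diet H birds read below all diet A birds, and replicates 3 and 4 were the lowest. The H minus A difference was -0.78 ± 0.19 (SE), a 1.72-fold lower signal, with adjusted p = 0.521. It was -0.53 without diet H replicates 3 and 4 (adjusted p = 0.999994), -0.33 in the lower title block and -1.23 in the upper. Such non-overlap held for 5 of 402 features (1.24%) in H minus A, against 2.14% of all features. MIR1612, inside the cytoskeletal gene SEPTIN2, read 2.52, 3.19, 2.36 and 2.96 in diet A, 2.64, 2.98, 3.16 and 2.41 in E, 2.81, 2.97, 3.55 and 2.40 in F, and 4.39, 3.76, 3.83 and 3.06 in H. Diet H replicate 4 overlapped with the other diets. Diet H differed by 1.002 ± 0.288 (SE) from A, 0.96 from E and 0.83 from F (adjusted p = 0.521, 0.942 and 0.971), and 1 of 16 arrays lay above the 20th percentile. Without diet H replicates 3 and 4 the differences were 1.31, 1.27 and 1.14. MIR1728 had an H minus A difference of 0.60 ± 0.20, which was 0.37 without diet H replicates 3 and 4.

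**Figure D4:**
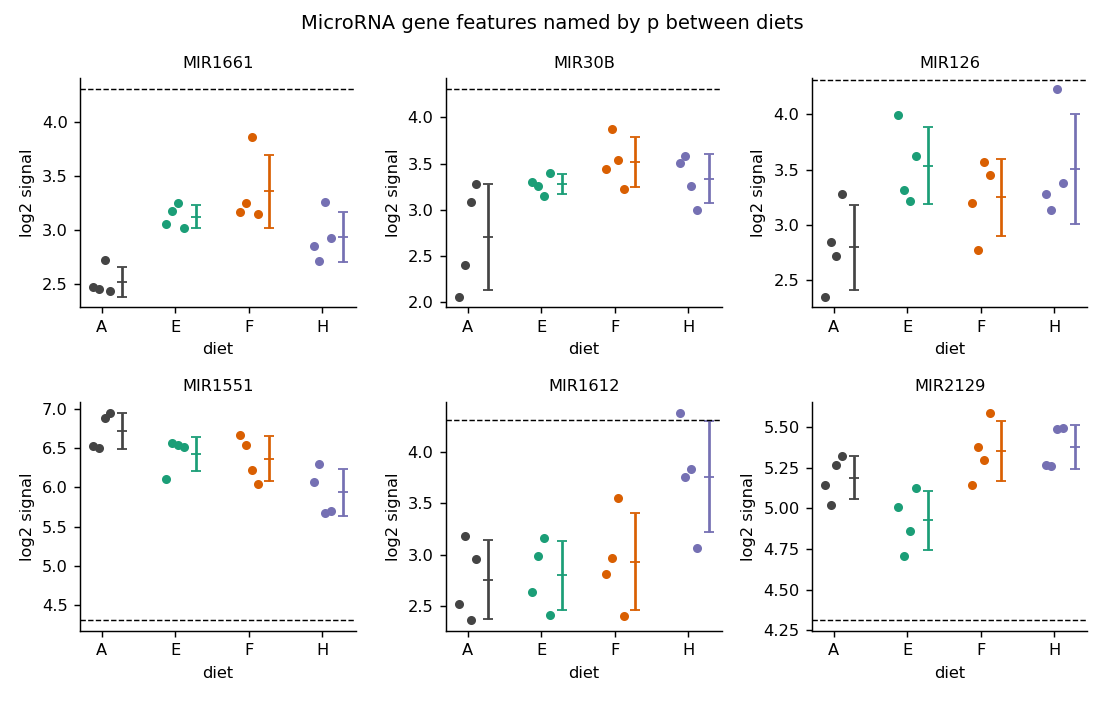
Log2 signal (y axis) by diet (x axis) of 6 of the microRNA gene features named by their p between diets, with 1 point per bird, and the mean and SD of 4 birds beside them. The dashed line is the 20th percentile of all values, 4.31; MIR1661, MIR30B and MIR126 lie wholly below it and MIR1551 and MIR2129 wholly above.

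Between the diets other than A, MIR2129 (feature 15426866) was the leading feature above the 20th percentile on all arrays. It read 5.01, 4.71, 4.86 and 5.13 in diet E, 5.14, 5.38, 5.30 and 5.59 in diet F, and 5.27, 5.26, 5.49 and 5.50 in diet H. All diet E birds lay below all birds of F and of H, and diet A (5.15, 5.02, 5.27 and 5.32) overlapped with each. The difference was -0.43 ± 0.14 (SE) in E minus F (adjusted p = 0.99998) and 0.45 ± 0.14 in H minus E (adjusted p = 0.942), which was 0.34 without diet H replicates 3 and 4. Non-overlap held for 7 features (1.74%) in E minus F, 3 (0.746%) in H minus E and 9 (2.24%) in H minus F, against 1.15%, 1.03% and 1.14% of all features.

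The other features named by p lay below the 20th percentile on all arrays, except MIR1731, which lay above it on 13. MIR103A1, which lies in the pantothenate kinase gene PANK3, differed by -0.73 ± 0.21 (SE) in E minus F. MIR27B, of the miR-23 and miR-27 group, differed by -0.49 ± 0.18 in E minus F and -0.53 ± 0.18 in H minus F, the latter -0.44 without diet H replicates 3 and 4. MIR1731 differed by 0.57 ± 0.21 in E minus A, MIR99A by 0.49 ± 0.21 in F minus A, and MIR1769 by 0.49 ± 0.18 in H minus E (0.52 without these birds). MIR1761 differed by 0.59 ± 0.20 in H minus F, which was 0.24 without them. Of the 13 features behind the 18 named differences 9 were below the 20th percentile on all arrays and 2 above it on all. The sign was the same in both title blocks in 18 of 18, which were chosen by their p over both blocks.

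Single birds varied most in MIR107 (SD 0.60 over 16 birds), MIR1682 (0.54), MIRLET7D (0.52), MIR211 (0.51), MIR1796 (0.50) and MIR301A (0.50), among features above the 20th percentile on all arrays. MIR107 read 6.64, 6.36, 7.08 and 7.02 in diet A, 6.36, 6.79, 6.91 and 6.66 in E, 6.82, 7.07, 6.71 and 6.62 in F, and 7.18, 7.11, 6.21 and 4.65 in H. Its spread lay in diet H replicate 4, which read lowest, while replicate 1 of the same diet read highest. MIR211 read 7.57 in diet H replicate 3 and 5.07 to 6.23 in the other 15 birds. MIR301A was lowest in diet H replicates 4 and 3, at 4.79 and 5.09, and highest in diet E replicate 2, at 6.52.

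Positions relative to other genes came from RefSeq's table for the GRCg7b assembly. It holds all 402 features by Entrez ID but gives no strand, so a gene that encloses a microRNA gene may lie on the other strand. By span, 296 features lay within a protein-coding gene, 47 within another kind of gene and 59 in none. The share with a mean above the 20th percentile was 53.7%, 36.2% and 50.8%. Among features numbered 1500 to 1900 it was 66.3% of 172 within protein-coding genes and 54.1% of 37 in none, and among the others 36.3% of 124 and 45.5% of 22.

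A feature and the gene around it did not always move together over the birds. For the 8 brightest features with a measured enclosing gene, Pearson's r over 16 birds passed adjustment over the 8 in 5, of which 2 were positive and 3 negative (permutation tests, two-sided, 100000 resamples). The permutations took the 16 birds as exchangeable, with no account of diet, title block or array spread. A shift shared by whole arrays thus also enters these p-values, and its part was not tested. MIR1653 went with LPP, a cell adhesion gene, at r = 0.64 and rho = 0.64 (permutation p = 0.00688 and 0.00946, adjusted p = 0.0138 and 0.0189), with r = 0.63 without diet H replicates 3 and 4 (adjusted p = 0.0406). Its r was 0.47 without the 2 birds farthest from the median of LPP, and 0.85 and 0.64 in the lower and upper title block of 8 birds each. MIR1698-1 and MTMR4, a lipid phosphatase gene, had r = 0.57 (permutation p = 0.0231, adjusted p = 0.037) and rho = 0.50 (adjusted p = 0.0801), which fell short without those 2 diet H birds (r = 0.41, adjusted p = 0.228).

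MIR1785 went against ANKRD11, a chromatin regulator gene, at r = -0.78 and rho = -0.66 (permutation p = 0.00069 and 0.00664, adjusted p = 0.00276 and 0.0189). Without diet H replicates 3 and 4 its r was -0.71 (adjusted p = 0.0305), in the title blocks -0.50 and -0.78, and without the 2 birds farthest in ANKRD11 -0.46. MIR1644 went against XYLT1, a proteoglycan enzyme gene, at r = -0.65 and rho = -0.65 (permutation p = 0.00621 and 0.00755, adjusted p = 0.0138 and 0.0189). It kept r = -0.68 without those 2 diet H birds (adjusted p = 0.0305), -0.61 without the 2 farthest, and -0.59 and -0.61 in the blocks. MIR1635 and SKI, a repressor of TGF-beta signalling, had r = -0.77 and rho = -0.81 (permutation p = 0.00038 and 0.00034, adjusted p = 0.00276 and 0.00272). Without diet H replicates 3 and 4 they had r = -0.58 (adjusted p = 0.0551), with -0.75 and -0.77 in the blocks. The other 3 did not pass: MIR1557 and CHD7 had r = -0.34, MIR1724 and PTPRU 0.39, and MIR1652 and CBX2 0.46 (adjusted p = 0.193, 0.157 and 0.0974). Without diet H replicates 3 and 4 their r was -0.22, 0.30 and 0.13.

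Over all 208 features with 1 measured enclosing gene, r was above 0.5 in 45 and below -0.5 in 13, with a median of 0.21. With features of identical values counted once there were 202, with 43 above 0.5, 13 below -0.5 and a median of 0.20. Against the enclosing genes of other features the median r was 0.001. How many such unrelated pairs pass 0.5 or -0.5 was not computed, so the counts have no background share beside them. The median was 0.29 in the 84 features above the 20th percentile on all arrays (0.21 without diet H replicates 3 and 4) and 0.15 in the 101 with a mean at or below the mark. These are descriptions over the same 16 arrays, and features can share an enclosing gene.

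Some known pairs are given as values, chosen after they were seen and not tested. MIR126 and EGFL7 had r = 0.69 over 16 birds and 0.61 without diet H replicates 3 and 4, with EGFL7 at 7.02 ± 0.26 (SD). MIR107 and PANK1, the pantothenate kinase gene that encloses it, had r = 0.62 over 16 birds and -0.007 without these 2, where PANK1 read 9.72 and 9.61 against a mean of 10.6 over all birds. MIR15B and SMC4, a chromosome condensation gene, had r = 0.69, and 0.70 without the 2 birds. MIR15B averaged 3.55 and lay above the 20th percentile on 3 arrays. MIR16-2, in the same span and above the 20th percentile on all arrays, had r = 0.42 with SMC4, and 0.59 without the 2 birds. Without the 2 birds farthest from the median of SMC4, r was 0.51 for MIR15B and 0.17 for MIR16-2. MIRLET7A3 lay in the span of PPARA, the receptor that drives fatty acid oxidation in liver, and had r = -0.79 with it, and -0.66 without the 2 birds. MIRLET7B, in the same span and also above the 20th percentile on all arrays, had r = 0.31 with PPARA, and 0.43 without the 2 birds.

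**Figure D5:**
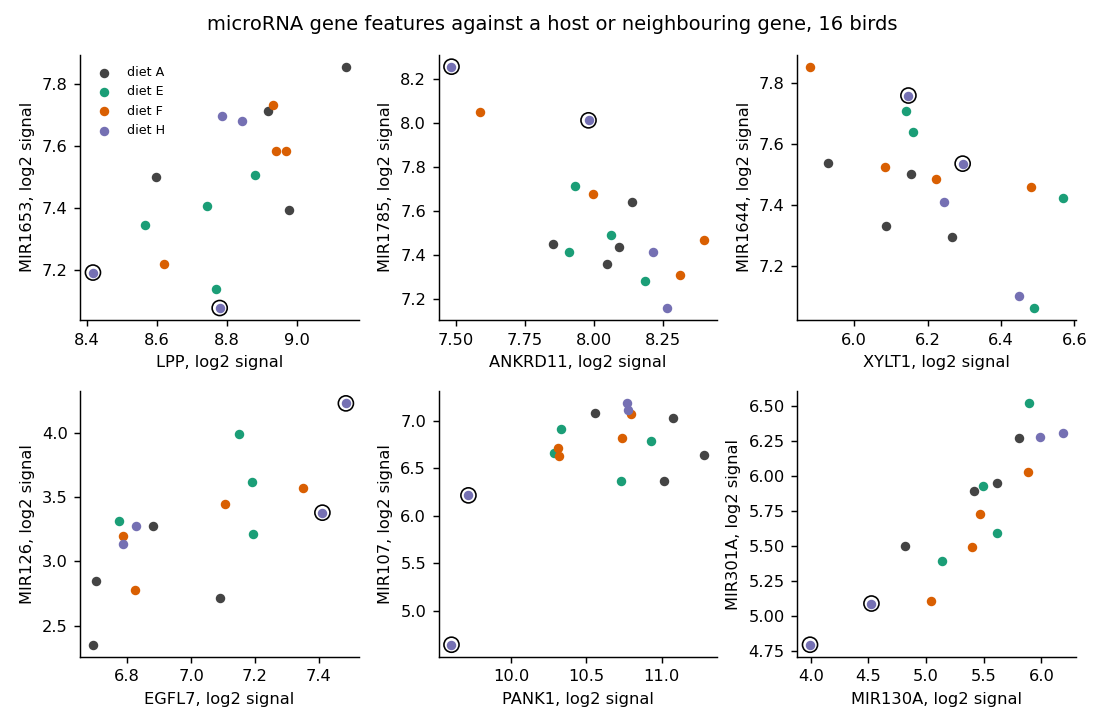
Log2 signal of 6 microRNA gene features (y axes) against the gene whose span encloses them, or for MIR301A the neighbouring MIR130A (x axes), with 1 point per bird, coloured by diet, and diet H replicates 3 and 4 circled. MIR1653 goes up as LPP goes up (r = 0.64), and MIR1785 and MIR1644 go down as ANKRD11 and XYLT1 go up (r = -0.78 and -0.65). The r of 0.62 of MIR107 and PANK1 is -0.007 without the circled birds.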

How the data were processed

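The deposited table holds 1-colour array signals of 16 livers. Values run from 0.93 to 14.63, so the authors deposited log2 signals. The tool listed per the submitters' processing notes is GCOS 1.1.1. For background correction, summarization and normalization the method is not given in the sources used here. One limma 3.58.1 model (R 4.3.3) with a mean per diet was fitted to all 20804 features and 16 arrays, with 12 residual degrees of freedom, two-sided tests, and Benjamini-Hochberg adjustment at 0.05 over all features. The procedure was tested on simulated data with independent noise in each feature. These data held no shift shared by whole arrays, so the test does not cover the shifts between arrays described above. Precision is limited by how many arrays there are: the microRNA gene features had a median SE of 0.211. The members and lists were chosen with earlier results of these data known. Named are the 12 brightest features, the 6 with the smallest p in the F test, 3 per difference, the 6 with the largest SD, 3 on each side of the 20th percentile, 8 in enclosing genes and up to 4 per family list. Replicates were numbered in accession order. The planned strand filter for enclosing genes and the comparison of signal with hairpin sequence were not made, because no strand or microRNA sequence was at hand. Correlations used scipy 1.17.1. The alternatives were quantile normalization, a filter on dim features, trended robust moderation, array weights, the title blocks, other percentiles and leaving out birds. Leaving out diet H replicates 3 and 4, counting identical features once among enclosing genes, and the spread within title blocks were chosen after the data were seen.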

Additional observations from a re-analysis of the deposited data

Results flagged for a closer look

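Of 156 groups of 4 birds (37 named features and 2 summaries, in 4 diets), 10 held a bird whose gap to the nearest of the other 3 exceeded Dixon's 95% limit for 4 samples. Chance gives about 1 in 20 among groups not chosen by their values. The 37 features were chosen by their values, some by a large SD, so the 10 cannot be read against that rate. Of the 10, 2 lay in MIR1661, where diet A replicate 3 read 2.73 (the others at most 2.47) and diet F replicate 3 read 3.87 (the others at most 3.26). MIR1551 read 6.11 in diet E replicate 1, with the others at 6.51 to 6.56. MIR211 read 7.57 in diet H replicate 3, against at most 6.07 in the rest of that diet. MIR21 read 5.30 in diet E replicate 1 (the others at most 4.22), and MIR184 read 3.28 in diet E replicate 2 (the others at least 4.28). MIR1604 read 9.23 and MIR1644 read 7.85 in diet F replicate 4, with the others at most 8.995 and 7.52. MIR1769 read 2.58 in diet A replicate 4 (the others at least 3.16) and MIR1761 1.47 in diet F replicate 2 (the others at least 1.62).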

How the results depend on the processing

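No paired analysis was possible because the sample labels carry no replicate numbers shared between diets. limma called 0 microRNA gene features in all 7 tests under each alternative run, including the omission of each bird and, chosen after the data were seen, of diet H replicates 3 and 4. None of the 18 named differences changed sign under the 382 alternative fits, and their lowest adjusted p was 0.11. Many of these fits cannot change a difference, so its sign there was fixed in advance. They are trended moderation, the filter on dim features, the title blocks as a covariate and omission of birds outside the compared diets. Dim features have no value where dim features were left out. The count of 206 above the 20th percentile was 57 with the 50th percentile as the mark, and 206 to 208 with each bird left out. The median difference of the 402 features moved by more than the SD between birds in these settings. In the lower and upper title block it was 0.15 and -0.10 in E minus A and -0.12 and 0.20 in H minus E, and in the lower block 0.10 in E minus F. Over all features these medians were 0.04 and -0.01, -0.03 and 0.12, and 0.04. Without diet H replicates 3 and 4 the median of the 402 was -0.049 in H minus A, -0.079 in H minus E and -0.12 in H minus F. Over all features it was then -0.01, -0.03 and -0.05. The 5 of 8 features that went with or against their enclosing gene became 3 without these 2 birds, and 3 to 6 with single birds left out, the 3 arising when either A replicate 2 or F replicate 4 was omitted. The cause was not tested, and fewer birds remained in each of these settings.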

Other observations

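Features of microRNA genes within 10 kb of each other, on either strand, formed 82 pairs among 94 features. Their median r over the 16 birds was 0.17, against 0.11 for the 80509 other pairs. After quantile normalization the close pairs had a median of 0.11, and the other pairs were not recomputed. MIR222 and MIR221 enter as 2 pairs with the same r of 0.04. In the 3 close pairs with both features above the 20th percentile on all arrays, r was 0.60 (MIR449B and MIR449C), -0.25 (MIR130B and MIR301A) and -0.30 (MIRLET7A3 and MIRLET7B). The highest was that of MIR301A and MIR130A, neighbours of 1 cluster, at r = 0.91 (0.86 without diet H replicates 3 and 4), with MIR130A from 3.99 to 6.19. MIR454 of the same cluster had r = 0.72 with MIR301A (0.65 without the 2 birds). MIR130B, the fourth member of that cluster, had r = -0.25 with MIR301A, -0.20 with MIR130A and -0.02 with MIR454. MIR16-2 and MIR15B, both within SMC4, had r = 0.62 (0.66 without the 2 birds). Among pairs with an enclosing gene, MIR1705 and RC3H2 had r = 0.87 (0.61 without these birds) and MIR1732 and HOXA9, of the Hox genes that set positions along the body, 0.83 (0.82 without them). These pairs were chosen after their values were seen, share the same arrays and were not tested.

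There were 10 symbols with 2 features. In 7 the values were identical on all arrays, so such a pair holds 1 measurement, although the counts over 402 features and over each list include both. In the other 3 they differed: MIR1603 averaged 6.77 and 6.73 with r = 0.87 over the birds, MIR1726 5.77 and 6.02 with r = 0.46, and MIR1611 4.99 and 6.97 with r = 0.41. A further 23 features carry a microRNA symbol beside another symbol. Their means ran from 2.74 to 8.05, and 17 lay above the 20th percentile.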
